A study of Mus musculus with 16 samples.

Results

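The genes of 8 secreted ligands of the BMP, TGF-β and activin families were followed in mouse lung endothelial cells (MLECs): *Bmp2*, *Bmp4*, *Bmp6*, *Tgfb1*, *Tgfb2*, *Tgfb3*, *Inhba* and *Inhbb*. They were picked by gene symbol from a table of 55414 genes. All 8 were among the 15693 genes that passed the filter on low counts, and none had fewer than 191 reads in any library. MLECs from 4 independent isolations of Eng fl/fl;Rosa26-CreERT2 mice carrying Immorto, an immortalising transgene, were enriched by CD31- and then ICAM2-coated beads. In each isolation, 4-OH-tamoxifen switched on the Cre, which the Rosa26 locus drives in all cell types, to remove the floxed *Eng* gene (KO) and vehicle left it in place (Ctrl), so loss of endoglin and exposure to tamoxifen cannot be told apart. Cells were serum-starved overnight and treated for 90 min with PBS or with BMP9 at 0.2 ng/ml of its growth factor domain (GFD). Ctrl cells received sENG(M):BMP9, in which a soluble endoglin present in large excess holds the GFD, and KO cells received pro:BMP9, in which the GFD is bound to its prodomain. Each isolation gave 1 library of each of the 4 groups, which are named here by cells and treatment, such as Ctrl PBS or KO pro:BMP9, so that every group had 4 libraries. Because cells and ligand form changed together, endoglin status and the form of BMP9 cannot be told apart between the ligand-treated groups. No group received soluble endoglin or prodomain without BMP9, so in each response the effect of BMP9 and that of its partner cannot be told apart. The growth medium, but not the medium of the last day and night before treatment, held 1 μM SB431542, an inhibitor of the type I receptors for TGF-β and activin. Interferon-γ was also in the growth medium and was left out at the same step, when the culture temperature was raised.

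BMPs, TGF-βs and activins are made as precursors that pair into dimers, and are cut to release the growth factor domain. The mature dimer brings together type I and type II receptor kinases, which pass the signal to SMAD proteins. BMPs act mainly through Smad1, Smad5 and Smad9, while TGF-βs and activins act mainly through Smad2 and Smad3. BMP9, the ligand added here, signals in endothelial cells through the type I receptor ALK1 with endoglin as its co-receptor, and both are mutated in hereditary haemorrhagic telangiectasia. The 8 genes encode ligands that the same cells could add to that signal.

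*Bmp4* was the ligand gene with the largest fitted increase after treatment, and *Inhba* was the only one of the 8 that fell past the threshold in either cell type. The bases before their deposited gene starts are therefore shown. Both stretches are from the GRCm39 reference genome, written 5′ to 3′ on the gene's own strand. For *Bmp4* (chr14:46628127-46628376, minus strand) the whole 250 bases are given. A long non-coding RNA on the opposite strand has an exon in that stretch. For *Inhba* (chr13:16186186-16186372, plus strand) 187 bases are given, because the rest of the 250 lies in an exon of another *Inhba* transcript. Capitals mark a match to GGAGCC, read on either strand.
Bmp4: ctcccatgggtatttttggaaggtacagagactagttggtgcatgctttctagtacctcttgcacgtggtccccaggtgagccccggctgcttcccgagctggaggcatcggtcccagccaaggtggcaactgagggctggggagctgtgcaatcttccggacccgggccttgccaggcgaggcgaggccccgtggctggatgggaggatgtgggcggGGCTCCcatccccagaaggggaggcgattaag
Inhba: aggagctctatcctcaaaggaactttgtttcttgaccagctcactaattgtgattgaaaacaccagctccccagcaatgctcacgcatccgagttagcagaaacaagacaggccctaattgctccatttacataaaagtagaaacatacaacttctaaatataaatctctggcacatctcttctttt

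Short motifs linked to SMAD binding were searched on both strands in the 250 bases before each of the 8 genes. The motif GGCGCC, found in 14.8% of 13132 windows of the same length, was in none of the 8. The marked motif, found in 32.6% of windows, was present in those of *Bmp4*, *Tgfb1* and *Inhba*. In *Bmp4* it lay 32 bases before the start, and in *Inhba* it lay in the part covered by the other transcript. A further motif, CAGAC, found in 40.7% of windows, occurred in the *Tgfb2* window only, at 2 positions. The windows of *Bmp2* and *Tgfb1* were the richest in G and C, at 74.8% and 75.2%, and that of *Inhba* was the poorest at 43.2%. These matches describe letters in the reference and do not show that a factor binds there.

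Libraries held between 14869115 and 17242117 counts, with a median of 15996523.5. Values are given as CPM, the reads of a gene scaled to a fixed library size after TMM normalisation. *Eng* lay between 375 and 594 CPM in Ctrl PBS and between 40.1 and 60.0 CPM in KO PBS, and with ligand between 525 and 776 CPM in Ctrl and between 115 and 130 CPM in KO cells, so each library's level matched its label. The summed CPM of 10 endothelial markers, such as *Pecam1* and *Cdh5*, ranged from 3399 to 7291 over the Ctrl PBS libraries, against 106 to 837 for 10 mural and fibroblast markers. In those libraries the 7 leukocyte markers summed to between 34.3 and 47.9 CPM and the 6 epithelial markers to between 3.38 and 4.92 CPM. Of these, 5 leukocyte and 4 epithelial markers never passed 10 counts in any of the 16 libraries, and *Sftpc* was at 0. The 5 lymphatic markers summed to between 3618 and 7148 CPM, mostly from *Lyve1* (3077 to 5316 CPM) and *Flt4* (386 to 1255 CPM). *Reln* lay between 7.79 and 355 CPM, *Pdpn* between 13.4 and 161 CPM and *Prox1* between 6.34 and 60.7 CPM. Between 3.81 CPM (isolation 2) and 328 CPM (isolation 1) came from 3 mesothelial markers.

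The level of the ligand genes differed more between isolations than between treatments. In Ctrl PBS the highest isolation was above the lowest by 3.31-fold for *Bmp2*, 3.33-fold for *Bmp6* and *Tgfb3*, 2.79-fold for *Inhba*, 2.22-fold for *Inhbb*, 2.20-fold for *Bmp4*, 1.73-fold for *Tgfb1* and 1.52-fold for *Tgfb2*. The median over all tested genes was 1.46-fold. *Bmp2*, *Bmp4*, *Bmp6*, *Tgfb1* and *Inhbb* were highest in isolation 2 and lowest in isolation 3. The endothelial marker sum was also highest in isolation 2 and lowest in isolation 3, and the mural and fibroblast sum was lowest in isolation 2 and highest in isolation 3. *Tgfb2* and *Tgfb3* were highest in isolation 1 and lowest in isolation 4, and *Inhba* was highest in isolation 4. The part of cell make-up in these differences was not tested, and in bulk RNA fewer cells of a type and less RNA per cell cannot be told apart. For every one of the 8 genes the CPM ranges of the groups compared overlapped. Ranges that did not overlap were seen in 4.01% of all tested genes for ligand against PBS in Ctrl cells and 2.67% in KO cells, and in 1.08% (PBS) and 0.79% (ligand) for KO against Ctrl cells. Therefore the changes below were read within isolations, with the isolation as a block in the test.

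**Figure D1:**
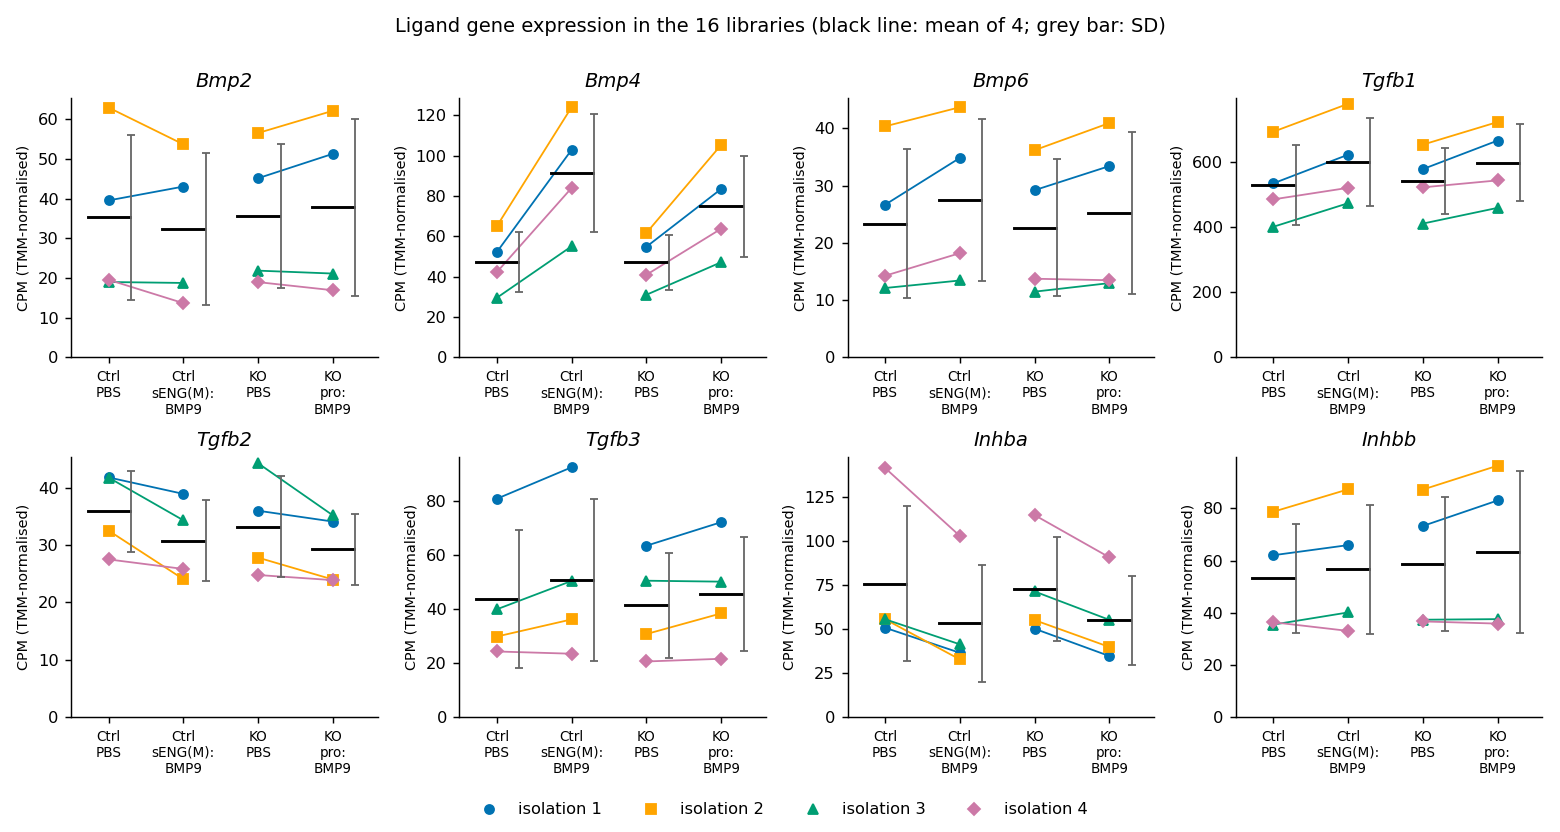
CPM of the 8 ligand genes (vertical axis, from 0) in the 4 groups (horizontal axis). Each symbol is 1 library, lines join the PBS and ligand libraries of an isolation, black lines are means of 4 and grey bars the SD. All 4 lines of *Bmp4* rise and all 4 of *Inhba* fall in both cell types, while isolations stay far apart, as for *Inhba* in isolation 4.

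Levels of different genes were compared per kilobase of gene length. In Ctrl PBS, *Tgfb1* was at 105 ± 24.3 CPM per kb (SD, n = 4), and *Bmp4* followed at 21.0 ± 6.70. *Tgfb3* (12.9 ± 7.56), *Inhbb* (12.5 ± 4.95), *Inhba* (11.8 ± 6.85) and *Bmp2* (9.93 ± 5.85) came next, and *Tgfb2* (6.20 ± 1.23) and *Bmp6* (5.98 ± 3.34) were lowest. In this order only *Tgfb1* and *Bmp4* were neighbours with ranges that did not overlap, and this held in the other 3 groups. Within isolations, *Bmp4* was above *Tgfb3* in 3 of 4 isolations in both PBS groups and in 4 of 4 in both ligand groups. From *Tgfb3* downwards, no gene was above the next in this order in 4 of 4 isolations in any group. Among all tested genes *Tgfb1* stood at the 97.4th percentile per length and *Bmp4* at the 83.6th. The other 6 lay between the 55.7th (*Bmp6*) and the 74.0th (*Tgfb3*).

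**Figure D2:**
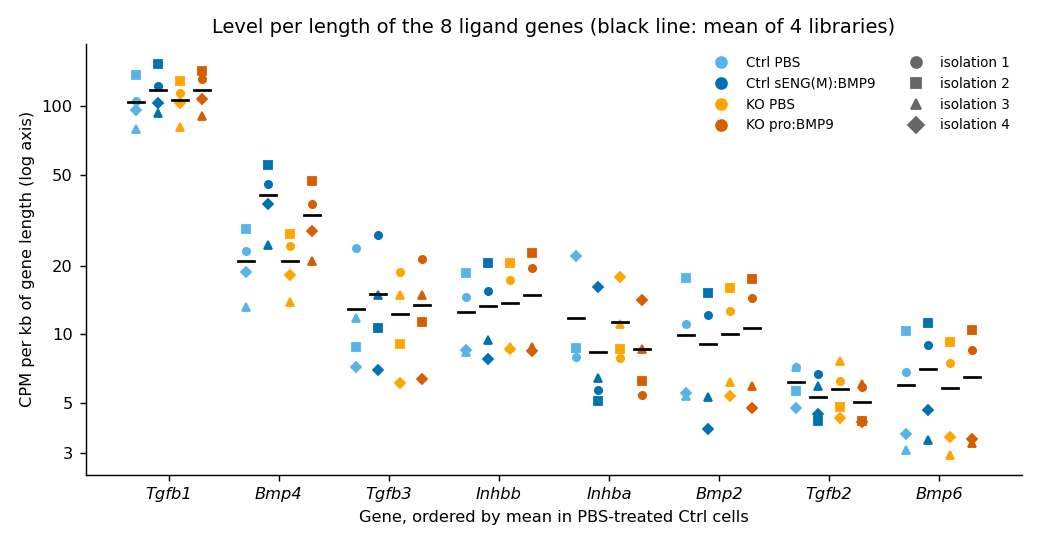
CPM per kb of gene length on a log axis for the 8 ligand genes, ordered by their mean in Ctrl PBS; symbols are single libraries, colours are groups, shapes are isolations and black lines are means of 4. *Tgfb1* lies above all others in each group, and from *Bmp4* downwards the range of each gene overlaps that of the next.

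The first question was which ligand genes changed with sENG(M):BMP9 in cells that have endoglin. In Ctrl cells, sENG(M):BMP9 raised *Bmp4*, *Bmp6* and *Tgfb1* and lowered *Inhba*. These 4 of 8 genes passed an adjusted p of 0.05 (edgeR's quasi-likelihood test, Benjamini-Hochberg over all tested genes), where 9.69% of all tested genes did. In that comparison 5.86% of all genes rose and 3.83% fell. The median log2 fold change of the 8 genes was 0.13, against -0.01 over all genes. An unadjusted p under 0.05 was seen for 6 of the 8, and for 3072 of the 15693 tested genes. The 4 calls all needed the isolation block: without it none of the 8 passed, as 1.06% of all genes did, and *Bmp4* had an adjusted p of 0.308.

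The second question was which of them changed in KO cells, where *Eng* reads were reduced but not absent. In KO cells, pro:BMP9 raised *Bmp4* and lowered *Inhba*, and the other 6 genes did not pass the test. Of all tested genes 5.59% passed, 3.68% upwards and 1.92% downwards. The median log2 fold change of the 8 genes was 0.11, against 4.23e-04 over all genes. Of the 8, 4 had an unadjusted p under 0.05, as did 2215 of the 15693 tested genes. Without the isolation block none passed in KO cells either, and 0.58% of all genes did.

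*Bmp4* encodes a BMP that patterns early mesoderm and lung (GRCm39, ENSMUSG00000021835, chr14:46620977-46628126, minus strand). In Ctrl PBS it was at 52.3, 65.1, 29.6 and 42.3 CPM in isolations 1 to 4, and after sENG(M):BMP9 at 103, 124, 55.1 and 84.1 CPM. Each treated library was close to double its own PBS library, at 197%, 191%, 186% and 199%, although the lowest treated library stayed under the highest PBS library. The fitted rise was 1.93-fold (log2 0.95 ± 0.0442 SE, 95% interval 0.86 to 1.04, adjusted p = 4.00e-11), which ranked 13 by p among all tested genes. In KO PBS the gene was at 54.9, 61.7, 31.1 and 41.0 CPM, and after pro:BMP9 at 83.6, 105, 47.2 and 63.8 CPM. Here the treated libraries were at 152%, 171%, 152% and 156% of their own PBS library. The fitted rise in KO cells was 1.58-fold (log2 0.66 ± 0.0448, interval 0.56 to 0.75, adjusted p = 1.19e-08). Both rises passed in every single-isolation omission.

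*Bmp6* encodes a BMP made by endothelial cells of the liver, where it controls hepcidin and so body iron (ENSMUSG00000039004, chr13:38529083-38684278, plus strand). It was at 26.6, 40.3, 12.1 and 14.3 CPM in Ctrl PBS and at 34.8, 43.7, 13.4 and 18.2 CPM after sENG(M):BMP9. It was higher in all 4 isolations, by 18.8% in the fit (log2 0.25 ± 0.0705, adjusted p = 0.0291). This call was close to the threshold and was lost in each of the 4 fits that left out an isolation (adjusted p between 0.0584 and 0.232 there, and 0.0569 with DESeq2). In KO cells it was at 29.2, 36.2, 11.5 and 13.7 CPM with PBS and at 33.4, 40.9, 13.0 and 13.5 CPM with pro:BMP9 (log2 0.14 ± 0.0717, adjusted p = 0.409). Isolation 4 did not share the small difference of the other 3 isolations.

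*Bmp2*, the closest relative of *Bmp4* and a BMP of bone and heart valve formation (ENSMUSG00000027358, chr2:133394079-133404805, plus strand), passed in no comparison. It was at 39.6, 63.0, 19.0 and 19.6 CPM in Ctrl PBS and at 43.1, 53.7, 18.8 and 13.7 CPM after sENG(M):BMP9. With PBS in KO cells it was at 45.2, 56.6, 21.9 and 19.0 CPM, and with pro:BMP9 at 51.3, 62.2, 21.1 and 16.9 CPM. Isolations went in different directions, and the 95% intervals of the log2 fold change were -0.32 to 0.03 in Ctrl cells and -0.12 to 0.22 in KO cells. Of the CPM per kb of the 3 BMP genes together, *Bmp4* made up 50.8% to 67.2% in Ctrl PBS and 67.7% to 81.4% after sENG(M):BMP9. In KO cells its share went from between 52.2% and 67.3% to between 61.8% and 77.6%.

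*Tgfb1* encodes TGF-β1, which is stored in a latent complex and acts on vessel walls, immune cells and matrix (ENSMUSG00000002603, chr7:25386427-25404502, plus strand). It was at 534, 692, 401 and 485 CPM in Ctrl PBS and at 622, 778, 473 and 520 CPM after sENG(M):BMP9. All 4 isolations rose, by 13.5% in the fit (log2 0.18 ± 0.0418, adjusted p = 0.00633). The call was lost without isolation 3 (adjusted p = 0.0728). With PBS in KO cells it was at 577, 652, 410 and 522 CPM, and with pro:BMP9 at 665, 722, 459 and 543 CPM. The 4 KO isolations were also all higher with ligand, with a log2 fold change of 0.14 ± 0.0418 and an adjusted p of 0.0564, just outside the threshold. That p fell under the threshold when only the 8 KO libraries were fitted (0.00479), with no filter on low counts (0.00350), after quantile normalisation, ComBat and DESeq2 (6.01e-04) and without isolation 4 (0.0397).

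*Tgfb2*, a TGF-β of heart and vessel development (ENSMUSG00000039239, chr1:186354989-186438186, minus strand), was at 41.8, 32.5, 41.8 and 27.5 CPM in Ctrl PBS. After sENG(M):BMP9 it was at 38.9, 24.0, 34.3 and 25.8 CPM. All 4 isolations were lower with ligand, but the log2 fold change of -0.22 ± 0.0699 had an adjusted p of 0.0523. It passed under 4 alternatives, namely with low-count genes kept in (0.0264), with genes required to reach 10 counts in all libraries (0.0474), with only the 8 Ctrl libraries (0.0425), and with quantile normalisation, ComBat and DESeq2 (0.0111). With PBS in KO cells it was at 36.0, 27.8, 44.2 and 24.8 CPM, and with pro:BMP9 at 34.1, 24.0, 35.2 and 23.9 CPM. The KO values were likewise lower in 4 of 4 isolations (log2 -0.18 ± 0.0711, adjusted p = 0.229). For comparison, 26.7% of all tested genes in Ctrl cells and 23.7% in KO cells had the same sign in all 4 isolations.

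*Tgfb3*, which acts in palate fusion and lung development (ENSMUSG00000021253, chr12:86103519-86125815, minus strand), did not pass in either cell type. Ctrl PBS libraries held 80.9, 29.8, 39.9 and 24.3 CPM and sENG(M):BMP9 libraries 92.5, 36.2, 50.4 and 23.5 CPM. KO libraries held 63.5, 30.7, 50.5 and 20.6 CPM with PBS and 72.2, 38.4, 50.2 and 21.6 CPM with pro:BMP9. The log2 fold changes were 0.20 ± 0.0922 (adjusted p = 0.248) and 0.14 ± 0.0937 (0.596), and with no filter on low counts the former passed (0.0350). Across the groups *Tgfb1* made up between 77.3% and 91.2% of the CPM per kb of the 3 TGF-β genes.

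*Inhba* encodes the βA subunit, whose homodimer is activin A (ENSMUSG00000041324, chr13:16186436-16206206, plus strand). In Ctrl PBS it was at 50.6, 55.4, 55.4 and 141 CPM, and after sENG(M):BMP9 at 36.4, 32.7, 41.2 and 103 CPM. Isolation 4 stood far above the other 3 in both groups, and with ligand it was at 72.7% of its PBS level, within the range of the others (71.9%, 59.0% and 74.4%). In the fit it fell by 30.3% (log2 -0.52 ± 0.0945, interval -0.72 to -0.32, adjusted p = 8.01e-04). With PBS in KO cells it was at 50.1, 54.9, 71.2 and 114 CPM, and with pro:BMP9 at 34.6, 39.7, 55.1 and 90.5 CPM. The KO libraries with ligand were at 69.1%, 72.3%, 77.4% and 79.1% of their PBS libraries. The log2 fold change there was -0.42 ± 0.0948 (interval -0.62 to -0.22, adjusted p = 0.00841). The KO call was lost without isolation 1 (adjusted p = 0.0766) and without isolation 2 (0.0574), and the Ctrl call held in all 4 omissions.

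*Inhbb* encodes the βB subunit of activin B and of activin AB (ENSMUSG00000037035, chr1:119343195-119349978, minus strand). Its values were 62.1, 78.7, 35.5 and 36.4 CPM in Ctrl PBS and 65.9, 87.3, 40.1 and 33.0 CPM after sENG(M):BMP9. In KO cells they were 73.3, 87.3, 37.3 and 36.7 CPM with PBS and 83.1, 96.4, 37.6 and 35.8 CPM with pro:BMP9. Neither response passed, with 95% intervals of the log2 fold change of -0.06 to 0.21 in Ctrl cells and -0.05 to 0.22 in KO cells. *Inhba* made up 31.9% to 72.1% of the CPM per kb of both activin genes in Ctrl PBS and 19.9% to 67.4% after sENG(M):BMP9. In KO cells the share went from between 29.5% and 67.5% to between 21.5% and 62.7%.

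**Figure D3:**
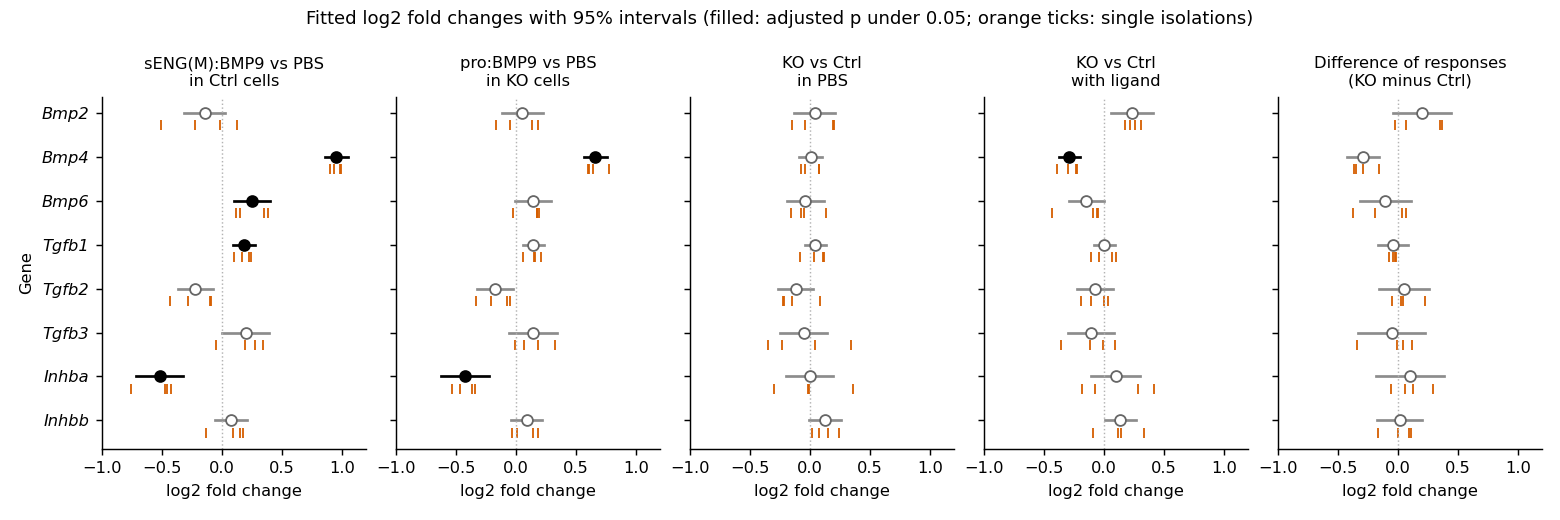
Fitted log2 fold changes (horizontal axis) of the 8 ligand genes in the 5 comparisons, 1 panel each; circles are the fit, bars its 95% interval, filled circles have an adjusted p under 0.05 and orange ticks are single isolations. *Bmp4* and *Inhba* pass in both ligand panels, *Bmp4* alone passes between ligand-treated KO and Ctrl cells, and none passes in PBS or in the difference of responses.

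KO and Ctrl cells were then compared at rest, to see whether the ligand genes differed without BMP9. In PBS none of the 8 passed, where 0.0191% of all tested genes did. None had an unadjusted p under 0.05, where 1071 of the 15693 tested genes did. DESeq2 with the block also called none of the 8, and called 0.226% of all genes. The log2 fold changes ran from -0.12 ± 0.0696 for *Tgfb2* (adjusted p = 0.794) to 0.12 ± 0.0634 for *Inhbb* (adjusted p = 0.752). *Inhbb* was higher in all 4 KO isolations, as 15.2% of all genes had the same sign in all 4. *Bmp4* in KO cells was at 105%, 94.9%, 105% and 96.9% of its Ctrl level, with a 95% interval of the log2 fold change of -0.09 to 0.10. For *Tgfb1* the interval was -0.05 to 0.13 and for *Inhba* -0.20 to 0.19. These intervals give the sizes of change that the 4 isolations still allow.

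With ligand present, *Bmp4* was the 1 gene of the 8 that passed between KO and Ctrl cells, where 0.255% of all tested genes did (0.166% lower and 0.0892% higher in KO cells). KO libraries with pro:BMP9 were at 81.2%, 84.9%, 85.7% and 75.9% of the matching Ctrl libraries with sENG(M):BMP9. The log2 fold change was -0.29 ± 0.0429 (interval -0.38 to -0.20, adjusted p = 0.00835), which ranked 5 among all tested genes. Without isolation 1 it did not pass (adjusted p = 0.0930), and without the isolation block none of the 8 did, with 0.00637% of all genes. The mural and fibroblast marker sum was also lower in ligand-treated KO than Ctrl cells in 4 of 4 isolations, at 69.0% to 91.2%, and was so in PBS, at 74.7% to 93.3%, where *Bmp4* did not pass. With ligand, 2 of the 9 tested genes of that list were called lower, 0 higher and 7 neither way. *Col1a1* had the largest values, up to 431 CPM in Ctrl and 369 CPM in KO cells. *Notch3* reached 161 and 184 CPM, so the markers did not all move alike. With ligand the endothelial sum was at 100.0% to 106% and the mesothelial sum at 60.7% to 138%. The lymphatic sum, mostly *Lyve1*, was at 102% to 113% and higher in 4 of 4 isolations. The part of these cell types in the *Bmp4* difference was not tested. *Dcn*, which is in that marker list, and *Adamtsl2*, *Nog*, *Hey1* and *Pmepa1* were lower too, as given with their lists below.

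Of the other 7 genes, *Bmp2*, *Bmp6* and *Inhbb* had an unadjusted p under 0.05 between ligand-treated cells, where 1454 of the 15693 tested genes did. *Bmp2* was higher in all 4 KO libraries (log2 0.23 ± 0.0814, adjusted p = 0.285) and passed when no filter on low counts was used (adjusted p = 0.0481), where 1.76% of all genes passed. *Bmp6* was lower in all 4 (-0.15 ± 0.0703, adjusted p = 0.538), and was at -0.07 without isolation 4. *Inhbb* was higher in 3 (0.14 ± 0.0629, adjusted p = 0.532), and was at 0.06 without isolation 1 and 0.20 without isolation 3. For *Tgfb1* the log2 fold change was 0.00174 ± 0.0418, and the median of the 8 was -0.04.

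Finally, the response of KO cells was set against that of Ctrl cells, to ask whether the responses themselves differed. None of the 8 genes passed, where 0% of all tested genes did and 565 had an unadjusted p under 0.05. The median log2 difference of the 8 was -0.01. *Bmp4* had the smallest p of the 8 and the only unadjusted p under 0.05. Its response was smaller in KO cells in 4 of 4 isolations, by a log2 difference of -0.29 ± 0.0629 (95% interval -0.42 to -0.16, unadjusted p = 2.05e-04, rank 3 of all tested genes, adjusted p = 0.937). DESeq2 with the block also called none of the 8, and 0.0682% of all genes. Quantile normalisation followed by ComBat and DESeq2 called *Bmp4* alone of the 8 (adjusted p = 0.00408), and 0.126% of all genes. For *Inhba* the difference was 0.10 ± 0.134 (interval -0.18 to 0.38) and for *Tgfb1* -0.04 ± 0.0591 (interval -0.16 to 0.08).

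The genes whose log2 CPM was most like that of the changed ligands over the 16 libraries, after each isolation's mean was subtracted, were listed as a description. The libraries share isolations and the ligand treatment, so high values are common. For *Bmp4* they included *Luzp1* (Pearson r = 0.988) and *Slk* (0.987), and for *Tgfb1* they were *Mex3c* (0.971), *Pdgfb* (0.958) and *Plxnd1* (0.945). *Inhba* was nearest to *Atp10d* (0.955), *Tent5b* (0.953) and *Plscr1* (0.952), and *Bmp6*, less closely, to *Pcnx* (0.892), *Klhl24* (0.890) and *Ttc39b* (0.889). Among the 8 themselves, *Bmp4* and *Inhba* ran in opposite directions (r = -0.854), as did *Tgfb1* and *Inhba* (-0.855), while *Bmp4* ran with *Bmp6* (0.821) and *Tgfb1* (0.809).

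The rest of the pathway was read from 5 gene lists. Of 25 other ligand genes of the family, 8 were tested and none passed in any comparison (edgeR). An unadjusted p under 0.05 was reached by 1 of these 8 in Ctrl cells and 1 in KO cells. Of the 15693 tested genes, 3072 and 2215 did so. The fitted responses of the 8 other ligands had a median log2 value of -0.08 in Ctrl and -0.03 in KO cells. *Gdf15*, a stress-induced ligand, was the most abundant of them at a mean of 72.8 CPM in Ctrl PBS (log2 fold change -0.18 in Ctrl and -0.15 in KO cells with ligand). *Gdf2*, which encodes BMP9 itself, reached at most 9 counts in any library, and *Bmp10* had 0 counts. Of 20 receptor and co-receptor genes, 15 were tested. With ligand 7 rose and 0 fell in Ctrl cells, and 5 rose and 0 fell in KO cells, with medians of 0.13 and 0.06. *Bambi*, a decoy receptor without a kinase, rose by 1.32 on the log2 scale in Ctrl and 0.89 in KO cells. *Bmpr2*, the BMP type II receptor, rose by 0.64 and 0.51. *Eng* rose by 0.48 in Ctrl and 1.23 in KO cells, where it started from a low level.

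Of 24 SMAD and feedback genes all were tested, and 20 rose in Ctrl cells and 16 in KO cells, with 0 falling in either. *Atoh8*, a transcription factor gene, rose by 3.64 and 3.62 on the log2 scale. *Smad6*, an inhibitory SMAD, rose by 3.45 and 3.21. *Smad7*, the other inhibitory SMAD, rose by 2.85 in KO cells, and *Hey1*, a transcriptional repressor, by 3.55 in Ctrl cells. Their counts were higher with ligand in the other cell type too. As raw sums over a group's libraries, *Smad7* went from 1606 to 12133 in Ctrl cells and *Hey1* from 147 to 1034 in KO cells. The median log2 fold change of this list was 1.35 in Ctrl and 1.08 in KO cells, so all 8 ligand genes had smaller fitted changes than the median feedback gene. Between ligand-treated cells *Hey1* (-0.73, adjusted p = 0.00835) and *Pmepa1* (-0.40, adjusted p = 0.0234) were lower in KO cells.

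Of 20 genes for antagonists and binding proteins 14 were tested, with 4 higher and 1 lower in Ctrl cells and 3 higher and 1 lower in KO cells, and medians of 0.05 and 8.86e-04. *Nog* encodes noggin, which binds BMP4 and BMP2 and keeps them from their receptors. It had 1 count in all 4 Ctrl PBS libraries together and 603 after sENG(M):BMP9 (12 to 272 per library), and in KO cells 1 count with PBS and 201 with pro:BMP9 (6 to 96), so no fold is given. Between ligand-treated cells it was lower in KO cells by a log2 fold change of -1.48 ± 0.175 (adjusted p = 9.09e-04). *Vasn*, whose product binds TGF-β, rose by 0.99 in Ctrl and 0.74 in KO cells. *Fstl3*, an activin-binding protein gene, rose by 0.41 in Ctrl cells, and *Nbl1*, of the DAN family of BMP antagonists, by 0.30 in KO cells. In the other cell type, raw counts summed over a group's libraries went from 782 to 780 for *Fstl3* (KO). For *Nbl1* they went from 4017 to 5140 (Ctrl). Such sums are not scaled to library size. *Fst* encodes follistatin, the main activin-binding protein. Its fit with ligand was lower by 0.35 in Ctrl cells and 0.32 in KO cells on the log2 scale. The KO call was close to the threshold (edgeR adjusted p = 0.0473). In Ctrl cells *Fst* did not meet the naming rule, which asks for a call and the same direction in all 4 isolations. The 1 gene of this list called lower in Ctrl cells was not lower in all 4 isolations and is not named by the rule. That *Fst* went unnamed there therefore does not show that it was not called.

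Of 29 genes for processing, latency and activation 26 were tested, with 6 higher and 3 lower in Ctrl cells and 3 higher and 2 lower in KO cells, and medians of 0.11 and 0.05. *Furin*, a protease that cuts the precursors of these ligands, rose by 0.44 and 0.30 on the log2 scale. *Itgav*, a subunit of the integrins that activate latent TGF-β, rose by 0.36 and 0.34. *Itgb8*, its partner in one of those integrins, changed the other way, with log2 fold changes of -0.71 and -0.65. *Lrrc32* (-0.27, in Ctrl cells) and *Nrros* (-0.30 and -0.32), whose products hold latent TGF-β at the cell surface, were lower. *Adamtsl2*, a matrix gene, had between 3 and 7 counts per library in Ctrl PBS and between 82 and 297 after sENG(M):BMP9, and in KO cells between 3 and 5 and between 26 and 130. Between ligand-treated cells *Adamtsl2* (-1.31, adjusted p = 0.0101) and *Dcn* (-0.61, adjusted p = 0.00835) were lower in KO cells. For *Dcn* the raw counts of a group's libraries together were 2889 in KO and 5203 in Ctrl cells with ligand. With PBS they were 3299 and 5125, so the lower level was present without ligand. In isolation 2 the *Dcn* difference with ligand was only -0.0691.

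**Figure D4:**
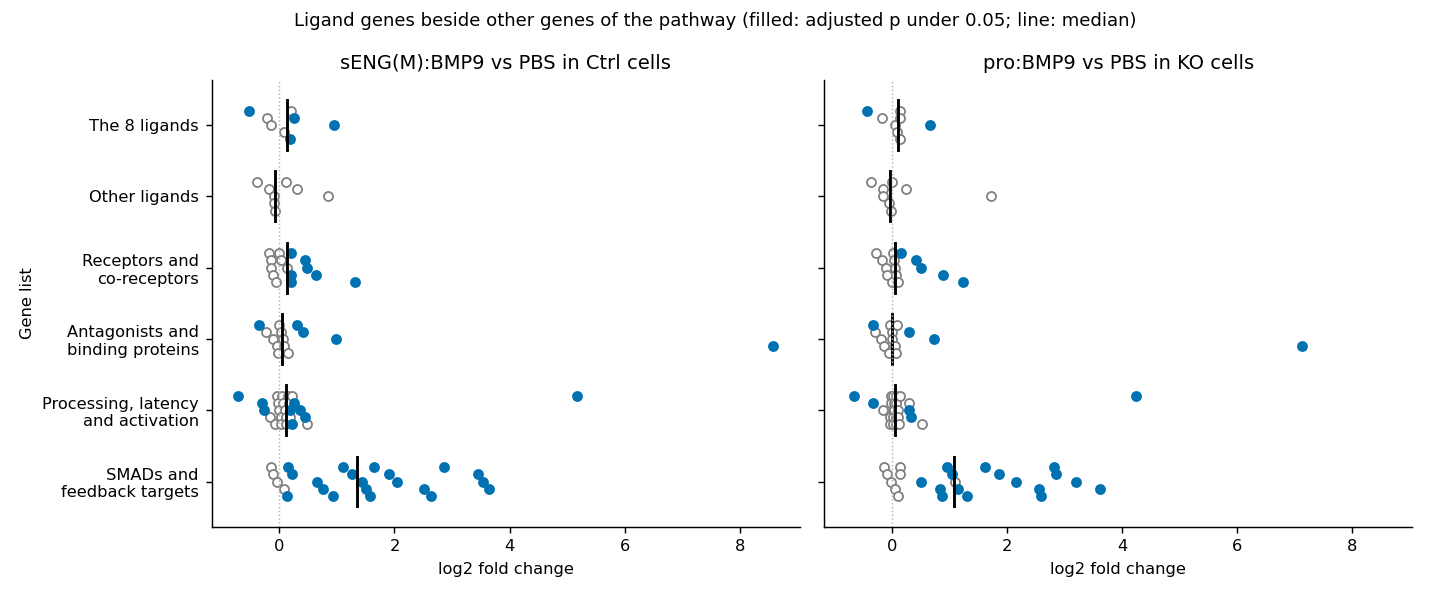
Fitted log2 fold change with ligand (horizontal axis) of tested genes in the 8-ligand list and 5 other pathway lists (rows), in Ctrl cells (left) and KO cells (right); filled circles have an adjusted p under 0.05 and vertical lines are list medians. SMAD and feedback genes lie mostly to the right, with medians of 1.35 and 1.08, against 0.13 and 0.11 for the 8 ligands; the farthest point is *Nog*, with 1 count over the PBS libraries of each cell type, so its fitted position is not a bound.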

How the data were processed

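RNA sequencing was carried out on MLECs of 4 isolations in 4 groups, 16 libraries in all, and no library was left out. The authors deposited raw read counts per gene, without normalisation. Per the study's methods, stranded libraries were aligned with Hisat2 to GRCm39, and the submitters' processing notes name HISAT2 2.0.5, featureCounts 1.5.0-p3 and DESeq2 1.26.0. The annotation release and the strand setting of the counting are not given in the sources used here. Genes on the opposite strand overlap 6 of the 8 ligand genes (all but *Bmp2* and *Tgfb1*), and without strand their reads cannot be told apart. The authors' quantile normalisation and ComBat steps are not in the deposited counts. Library totals of 14869115 to 17242117 set the precision.

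Counts were tested in R 4.3.3 with edgeR 4.0.16: filterByExpr by group (minimum count 10, minimum total 15), TMM and a quasi-likelihood fit to all 16 libraries with the isolation as a block. Adjusted p-values are Benjamini-Hochberg over 15693 tested genes (threshold 0.05). SEs are the log2 fold change divided by the root of F. Single-isolation log2 values use a prior count of 2. The replicate numbers name the isolation from which cells came, and libraries with the same number deviated together (mean r 0.757 over 24 pairs). Deviations within a group cancel out, so the mean r of -0.251 over 72 other pairs is not an independent reference. With the block, differences in level between isolations are removed. The p-values measure how far the differences within the 4 isolations varied, with the spread estimated over all 16 libraries. Alternatives used DESeq2 1.42.0, limma 3.58.1 and sva 3.50.0, and are listed in the closing section. The windows before genes were read from GRCm39 at the deposited gene starts, and 99.9% of the 54749 identifiers shared with GENCODE M39 overlapped in position. The 8 genes, the gene lists and the tests were chosen with earlier results of these data known. Named list genes are up to 3 per direction and list with the largest change in the same direction in all 4 isolations, all list genes called between ligand-treated cells, and the 3 genes most like each called ligand gene, of which 1 is not reported here. *Gdf15*, *Gdf2* and *Bmp10*, and *Fst* in Ctrl cells, were named after their values were seen.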

Additional observations from a re-analysis of the deposited data

Results flagged for a closer look

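Across 72 sets of 4 values (the CPM of the 8 genes in each group and the single-isolation log2 differences in each comparison), 5 held a value far from the other 3 by Dixon's criterion at the 95% level. Chance gives about 1 in 20 such sets. *Inhba* in isolation 4 was at 141 CPM in Ctrl PBS, where the other isolations lay between 50.6 and 55.4 CPM. It was at 103 CPM there after sENG(M):BMP9, against 32.7 to 41.2 CPM in the others. The log2 difference of *Inhba* between these groups was lowest in isolation 2, at -0.76 against -0.47 to -0.43. For *Bmp6*, isolation 4 stood apart in the response to pro:BMP9 in KO cells, at -0.0281 against 0.17 to 0.19. It also stood apart between ligand-treated KO and Ctrl cells, at -0.43 against -0.09 to -0.05.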

How the results depend on the processing

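Each result was recomputed without the isolation block, with DESeq2 with the block, with RLE size factors, with no filter on low counts, with at least 10 counts in every library, with only the 8 libraries of a comparison, with quantile normalisation, ComBat (isolation as batch) and DESeq2, and without each isolation in turn. Without the block, 0 of the 8 genes passed in the responses of Ctrl and KO cells and between ligand-treated cells, where 4, 2 and 1 passed with it. The share of all genes called went from 9.69% to 1.06%, from 5.59% to 0.58% and from 0.255% to 0.00637%. With an isolation left out, 2 to 3 passed in Ctrl cells, 1 to 3 in KO cells and 0 to 1 between ligand-treated cells. With no filter, 2 passed between ligand-treated cells (1.76% of all genes), and after quantile normalisation, ComBat and DESeq2 1 passed in the difference of responses (0.126% of all genes, against 0% with edgeR). In PBS, no alternative called any of the 8 genes. The cause of these changes was not tested, beyond the block removing differences between isolations and an omission leaving fewer libraries.

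Of 432 log2 fold changes under alternatives, 382 kept direction and side of the threshold, 16 lost and 11 gained a call, and 23 changed sign, none of which passed in the reported test. Without the block, *Bmp4* in PBS was at -0.00387 and *Tgfb1* between ligand-treated cells at -0.00230. *Inhba* in PBS was at 0.00559 with DESeq2 and 0.00247 after ComBat. *Tgfb1* between ligand-treated cells was at -8.83e-05 with 8 libraries and -0.00867 after ComBat, and the difference of responses of *Inhbb* was -5.91e-04 after ComBat. With an isolation left out, values in PBS ranged from -0.0180 to 0.122 for *Bmp2*, -0.0225 to 0.0338 for *Bmp4*, -0.105 to 0.0139 for *Bmp6*, -0.197 to 0.0674 for *Tgfb3* and -0.120 to 0.113 for *Inhba*. Between ligand-treated cells they ranged from -0.0333 to 0.0340 for *Tgfb1* and -0.0150 to 0.216 for *Inhba*. In the difference of responses they ranged from -0.0106 to 0.0873 for *Tgfb2*, -0.104 to 0.0523 for *Tgfb3* and -0.0218 to 0.0651 for *Inhbb*, and in KO cells from -0.0113 to 0.102 for *Bmp2*. The median half-width of the 95% interval over the 8 genes was 0.15 in the 4 group comparisons and 0.21 in the difference of responses.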
